A study of Danio rerio with 2 samples.

Results

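The genes described here are 8 transcription factor genes of zebrafish cranial mesenchyme: prrx1a and prrx1b, twist1a and twist1b, snai1a, snai1b and snai2, and tfap2a. They were chosen by symbol, as regulators of mesenchymal identity, and each symbol named 1 of the 25434 features of the deposited count tables. Their identifiers are ENSDARG00000033971 and ENSDARG00000042027 for the prrx1 pair, ENSDARG00000030402 and ENSDARG00000076010 for the twist1 pair, ENSDARG00000056995, ENSDARG00000046019 and ENSDARG00000040046 for snai1a, snai1b and snai2, and ENSDARG00000059279 for tfap2a. The study asked what inhibition of Gq/11 proteins does to cranial neural crest cells, the migratory embryonic cells that build most of the face. Single-cell RNA libraries were made from crest cells of Tg(sox10:mRFP);Tg(fli1a:EGFP) embryos at 36 hours post-fertilization (hpf). Both groups carried both reporters: sox10 sequence drives mRFP in the crest and fli1a sequence drives EGFP in arch crest and in vessels, and cells positive for both were sorted by fluorescence. One group was bathed from 16 to 36 hpf in 100 µM YM-254890 (YM), a cyclic depsipeptide that blocks Gq/11 proteins, and the other in the solvent dimethyl sulfoxide (DMSO). Each group was 1 library made from the pooled heads of embryos (70 embryos treated, 10 of them set aside), so no difference between DMSO and YM has a replicate check, and treatment and library cannot be told apart.

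Neural crest cells arise from epithelial neuroectoderm, leave it through an epithelial-to-mesenchymal transition, migrate, and fill the frontonasal region and the pharyngeal arches. Tfap2a is an AP-2 factor that acts early, in the specification and survival of the crest, while Snai proteins are zinc finger repressors best known for shutting down epithelial adhesion genes such as E-cadherin. Twist1 proteins are basic helix-loop-helix factors that promote the mesenchymal fate of cranial crest, and Prrx1 proteins are paired-type homeodomain factors of limb and craniofacial mesenchyme. The teleost genome duplication left zebrafish with pairs of copies of several of these genes.

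After cell calling and filtering, 3613 DMSO cells and 4429 YM cells remained, with medians of 5866 and 6527 unique molecular identifiers (UMIs) per cell, of 25340682 and 33649382 UMIs in the libraries, and 5 cell barcodes occurred in both. Levels are UMIs of a gene per 1000000 UMIs summed over the cells of a class (CPM). Free RNA, estimated from haemoglobin genes, made up 0.326% to 0.669% of UMIs in 5 of the crest-like classes of DMSO and 0.322% to 0.432% in all 6 of YM. In the dorsal arch 1-like class of DMSO the estimate was 9.36%, where 1 cell held 1031 of 1119 haemoglobin UMIs, and over all kept cells outside the erythroid-like class, the estimate used to subtract free RNA, it was 2.36% in DMSO and 0.364% in YM. The EGFP transcript of the sort was at 8214 and 7288 CPM in crest-like cells against 418 and 372 CPM in blood-like cells, and mRFP was at 0.76 and 2.13 CPM in crest-like cells. Cells were clustered without the 8 genes and named from marker genes. Crest-like cells numbered 3469 in DMSO and 4265 in YM, split into 6 classes of 275 to 841 DMSO cells and 285 to 1058 YM cells: frontonasal-like, ventral arch-like, dorsal arch 1-like, dorsal arch 2-like, posterior arch-like and gata3-positive-like. Values in parentheses after a level or a share are 95% intervals, which like every interval here cover counting error only. Because each library counts 3' ends, CPM values were compared between classes and between libraries but not between genes.

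In blood-like and epidermal-like cells prrx1, twist1 and snai genes were at low levels or at 0. In blood-like cells (71 DMSO and 65 YM), prrx1b was at 1.49 (0.0377 to 8.29) CPM in DMSO and 13.1 (6.00 to 24.9) CPM in YM, against 108 to 238 CPM over the crest-like classes of DMSO. In epidermal-like cells (48 and 47), prrx1b had 0 UMIs in both libraries, and a floor of 3 counts corresponds to 10.2 CPM in DMSO and 12.6 CPM in YM. There snai2 was at 20.4 (7.49 to 44.4) CPM in DMSO and 8.39 (1.02 to 30.3) CPM in YM, from 6 and 2 UMIs. Those intervals included the 12.2 and 11.7 CPM of posterior arch-like cells, its lowest crest-like class. Epidermal-like twist1a was at 3.40 CPM in DMSO and 41.9 (20.1 to 77.1) CPM in YM, from 1 and 10 UMIs. No member exceeded 20.4 CPM in blood-like cells of either library. The level of tfap2a was higher in epidermal-like cells. This gene in fish and other vertebrates is also active in surface ectoderm and in pigment cells, and it was at 106 (71.7 to 149.8) CPM in DMSO and 92.3 (57.8 to 139.7) CPM in YM in epidermal-like cells, a level within the range of the crest-like classes. In pigment-like cells (9 and 11), tfap2a was at 91.8 (33.7 to 199.9) CPM in DMSO and 155 (88.7 to 252) CPM in YM. There snai2 was at 45.9 (9.47 to 134) CPM in DMSO and 107 (53.3 to 191) CPM in YM, from 3 and 11 UMIs, within the range of its crest-like classes, and snai1a at 61.2 (16.7 to 157) CPM in DMSO and 38.8 (10.6 to 99.4) CPM in YM, from 4 UMIs in each library. In blood-like cells tfap2a had 1 UMI in DMSO and 0 in YM.

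**Figure D1:**
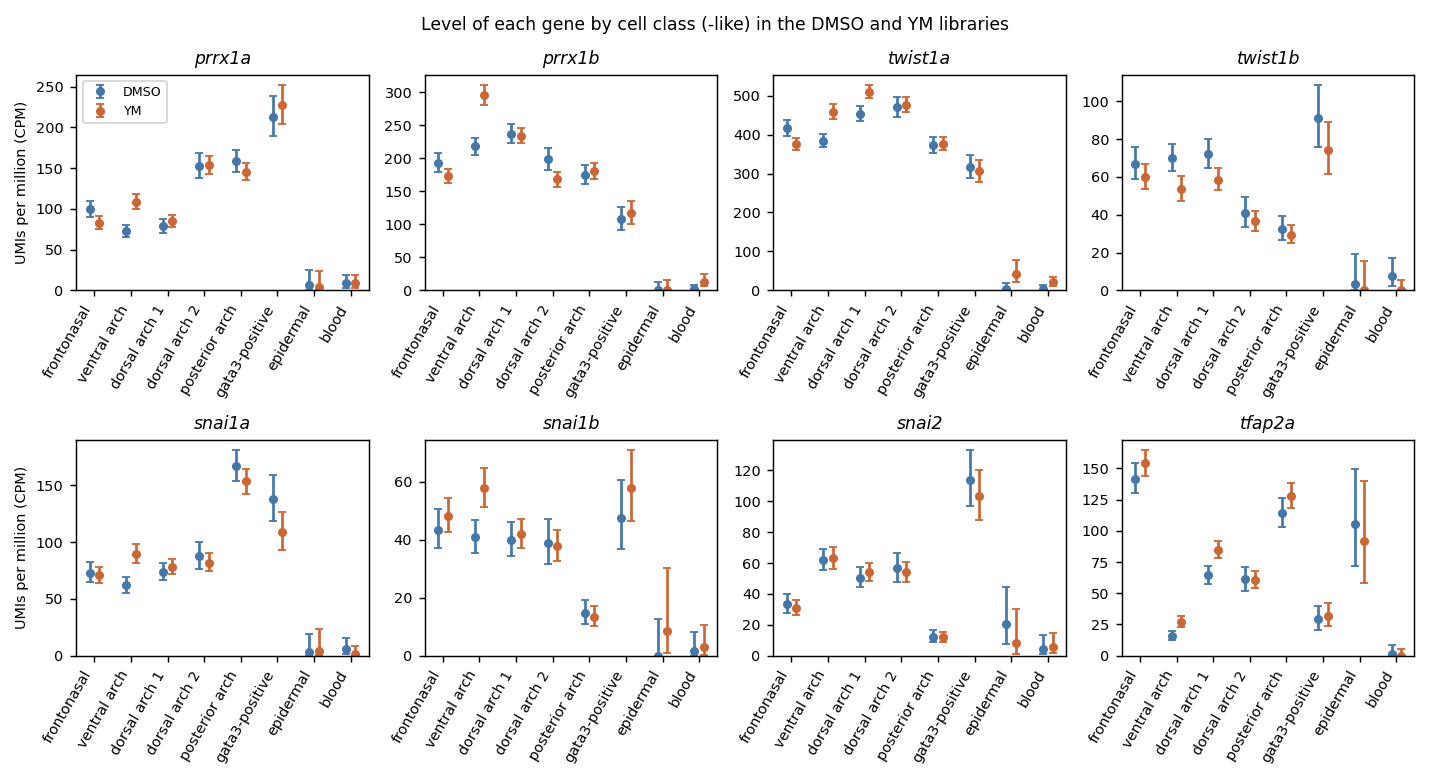
UMIs per 1000000 UMIs (CPM, y axis, from 0) of each of the 8 genes in the 6 crest-like classes and in epidermal-like and blood-like cells (x axis). Each point is the sum over the cells of 1 class in 1 library, blue for DMSO and orange for YM, with its 95% Poisson interval; prrx1, twist1 and snai genes lie at or below 41.9 CPM in epidermal-like and blood-like cells, while tfap2a is at 106 CPM (DMSO) and 92.3 CPM (YM) in epidermal-like cells.

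Among the crest-like classes the prrx1 copies were distributed differently. From the highest class to the lowest, prrx1a levels in CPM in DMSO were gata3-positive-like (213), posterior arch-like (158), dorsal arch 2-like (153), frontonasal-like (99.5), dorsal arch 1-like (78.8), then ventral arch-like cells (72.5). In YM the order was gata3-positive-like (228), dorsal arch 2-like (154), posterior arch-like (146), ventral arch-like (108), dorsal arch 1-like (85.1), then frontonasal-like cells (83.1). The gata3-positive-like class stood above every other class in both libraries, and the order of the lowest 3 changed between them, with ventral arch-like cells lowest in DMSO but above dorsal arch 1-like and frontonasal-like cells in YM. The highest class exceeded the lowest 2.94-fold (95% interval 2.51 to 3.44) in DMSO and 2.74-fold (95% interval 2.38 to 3.15) in YM. Posterior arch-like and dorsal arch 2-like cells had overlapping intervals in both libraries.

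For prrx1b the gata3-positive-like class was the lowest of the 6. The prrx1b levels of DMSO, in CPM and in falling order, were dorsal arch 1-like (238), ventral arch-like (218), dorsal arch 2-like (199), frontonasal-like (194), posterior arch-like (175), then gata3-positive-like cells (108). Those of YM were ventral arch-like (296), dorsal arch 1-like (234), posterior arch-like (181), frontonasal-like (173), dorsal arch 2-like (168), then gata3-positive-like cells (117). Neighbours in the DMSO order overlapped except at its lower end, where gata3-positive-like cells lay below posterior arch-like cells. In YM the ventral arch-like and dorsal arch 1-like classes were set apart from each other and from the rest. As a description over the 12 class sums (6 classes in 2 libraries, which share cells of the same embryos within a library), the log2 levels of prrx1a and prrx1b had a Pearson correlation of -0.76.

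The split of UMIs between the copies put the difference on 1 scale. Of prrx1 UMIs, prrx1a made up 24.9% (22.8 to 27.2) in DMSO and 26.8% (24.9 to 28.8) in YM in the ventral arch-like class, and 24.9% (22.7 to 27.2) and 26.7% (24.8 to 28.6) in the dorsal arch 1-like class. The frontonasal-like class had a prrx1a share of 34.0% (31.2 to 36.8) and 32.4% (30.0 to 34.9). Higher shares were found in the dorsal arch 2-like class, at 43.5% (40.3 to 46.8) and 47.8% (45.3 to 50.2), the posterior arch-like class, at 47.5% (44.6 to 50.5) and 44.7% (42.2 to 47.1), and the gata3-positive-like class, at 66.4% (61.7 to 70.8) and 66.1% (62.0 to 70.1). The prrx1a share was thus lowest in the ventral arch-like and dorsal arch 1-like classes and higher in the dorsal arch 2-like and posterior arch-like ones in both libraries, and intervals of the same class overlapped between DMSO and YM in all 6 classes. How reads shared by near-identical copies were counted is not given in the sources used here, so a share describes the UMIs as counted.

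**Figure D2:**
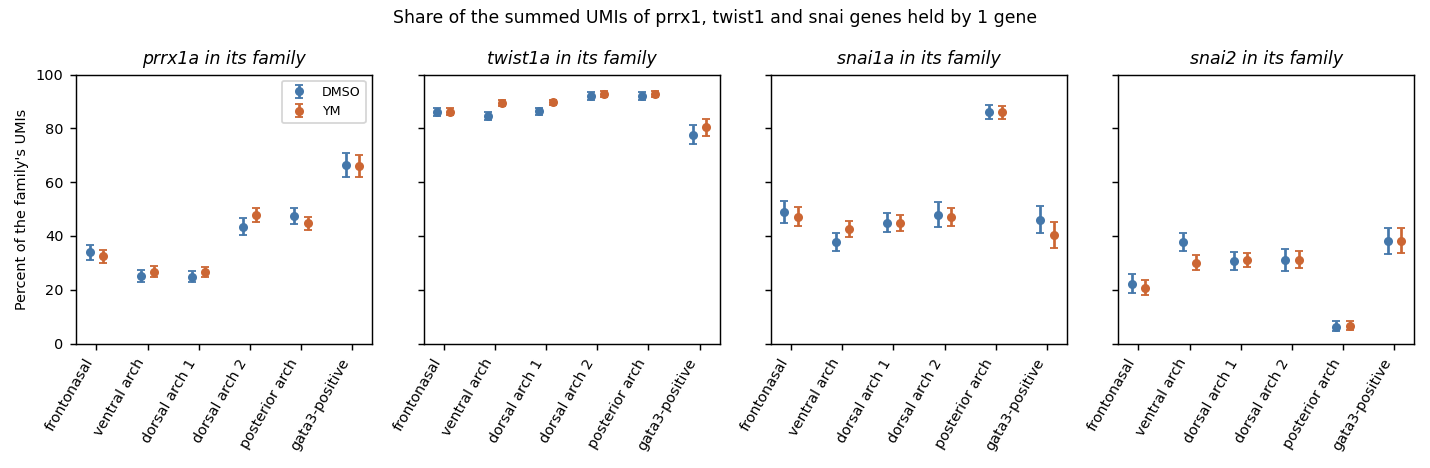
Percent of the summed UMIs of a gene family (y axis, 0 to 100) held by prrx1a (of prrx1a and prrx1b), twist1a (of twist1a and twist1b), and snai1a and snai2 (of the 3 snai genes) in each crest-like class (x axis), with 95% binomial intervals, blue for DMSO and orange for YM. The prrx1a share is highest in gata3-positive-like cells, and snai1a holds most snai UMIs in posterior arch-like cells in both libraries.

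The largest contrast of prrx1b lay inside the frontonasal-like class. That class joined a larger cluster (584 DMSO and 786 YM cells) and a smaller one led by cldn11a, zic2a and csf1b (192 and 272 cells). In the larger cluster prrx1b was at 248 (230.3 to 267) CPM in DMSO and 224 (210.2 to 239) CPM in YM, and in the zic2a cluster at 14.7 (7.82 to 25.1) and 23.0 (15.8 to 32.3) CPM. The larger cluster was 16.9-fold above the zic2a cluster in DMSO (log2 ratio 4.08, 95% interval 3.30 to 5.00) and 9.76-fold in YM (log2 ratio 3.29, 95% interval 2.79 to 3.83). With every cell thinned to 3500 UMIs, a prrx1b UMI was found in 213 of 470 cells (45.3%, 95% interval 40.8 to 49.9) of the larger cluster in DMSO, against 4 of 134 cells (2.99%, 95% interval 0.819 to 7.47) of the zic2a cluster. In YM it was found in 281 of 658 cells (42.7%, 95% interval 38.9 to 46.6) and 13 of 210 cells (6.19%, 95% interval 3.34 to 10.4), so that the zic2a cluster was near the 4.69% (0.977 to 13.1) of blood-like YM cells. Blood-like DMSO cells had 0 of 70, which allows up to 4.29% by the floor of 3 counts. Without thinning, blood-like cells held 1 prrx1b UMI in DMSO and 9 in YM, 6 of the latter in erythroid-like cells. The thinning left out 114 and 58 DMSO cells and 128 and 62 YM cells of these clusters. Before it the shares were 50.2% and 4.69% in DMSO, at medians of 4709.5 and 4355 UMIs, and 49.0% and 9.19% in YM, at 5036 and 4674 UMIs. For the paralog prrx1a the split was small: it was at 104 (93.0 to 117) and 83.6 (65.6 to 105) CPM in DMSO and at 87.7 (79.0 to 97.1) and 69.7 (56.7 to 84.7) CPM in YM. Among the other 6 genes, snai1b was lower in the larger cluster in both libraries, with a larger to zic2a cluster log2 ratio of -0.56 (95% interval -1.05 to -0.06) in DMSO and -0.86 (95% interval -1.22 to -0.49) in YM. For twist1a the ratio was -0.33 (95% interval -0.49 to -0.17) in DMSO and -0.11 (95% interval -0.25 to 0.03) in YM. That of snai1a was -0.39 (95% interval -0.77 to 0.01) in DMSO and -0.45 (95% interval -0.76 to -0.13) in YM. For snai2 the ratio was 0.53 (95% interval -0.15 to 1.26) and 0.97 (95% interval 0.36 to 1.63), and for tfap2a the interval included 0 in both libraries. In the zic2a cells twist1a was at 494 (448 to 542) CPM in DMSO and 397 (365 to 431) CPM in YM.

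**Figure D3:**
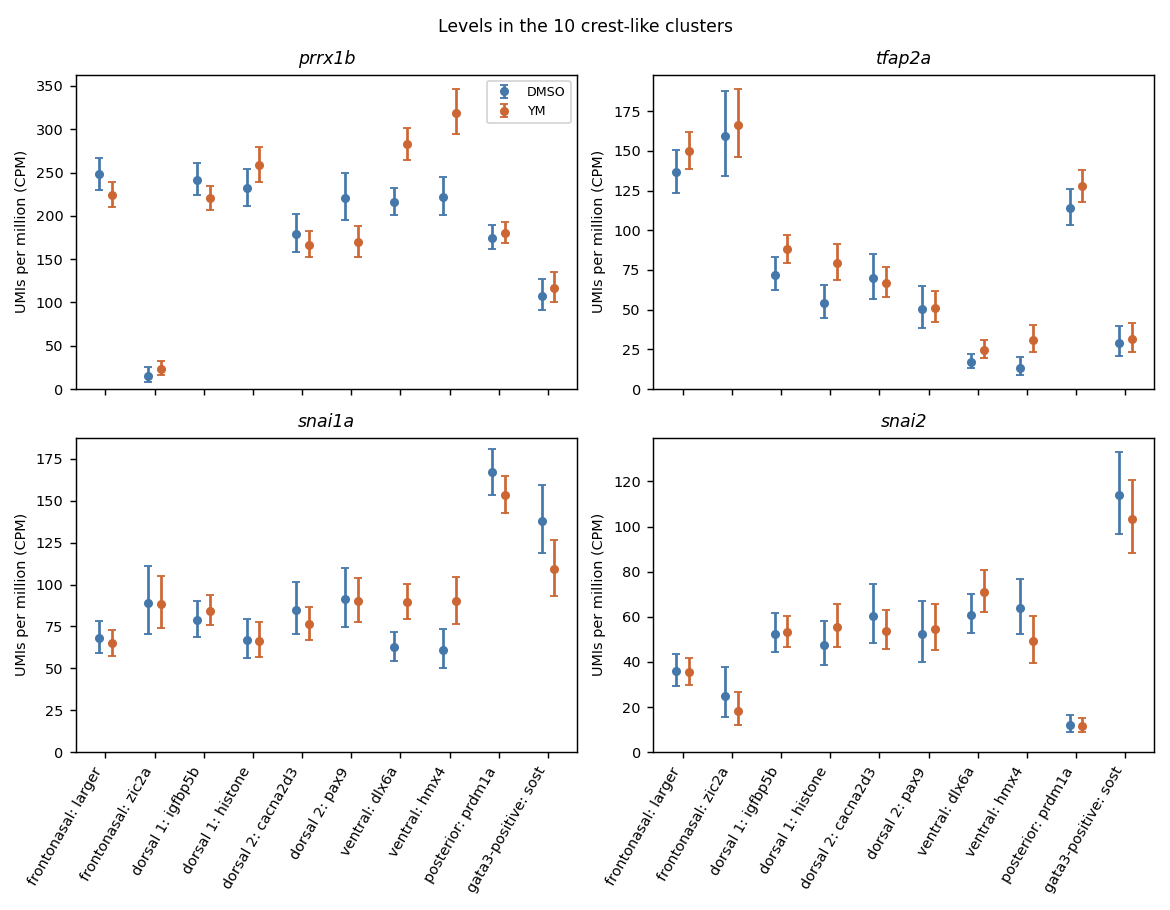
UMIs per 1000000 UMIs (CPM, y axis, from 0) of prrx1b, tfap2a, snai1a and snai2 in each of the 10 crest-like clusters (x axis, named by class and, except for the larger frontonasal-like cluster, by a leading gene or gene group), with 95% Poisson intervals, blue for DMSO and orange for YM. The zic2a cluster of frontonasal-like cells has 14.7 CPM (DMSO) and 23.0 CPM (YM) of prrx1b, and in the other clusters of both libraries prrx1b lies at or above 108 CPM.

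Of the set twist1a, one of the bHLH copies that promote ectomesenchyme fate in zebrafish, was the most evenly spread. In DMSO the twist1a levels in CPM were dorsal arch 2-like (470.3), dorsal arch 1-like (454), frontonasal-like (416), ventral arch-like (384), posterior arch-like (374), then gata3-positive-like cells (317), a span of 1.48-fold (95% interval 1.33 to 1.66). In YM they were dorsal arch 1-like (511), dorsal arch 2-like (477), ventral arch-like (459), posterior arch-like (376), frontonasal-like (376), then gata3-positive-like cells (306), a span of 1.67-fold (95% interval 1.52 to 1.84). The gata3-positive-like class was lowest in both and lay apart from its neighbour in the order, while the classes above it overlapped with their neighbours, except ventral arch-like and posterior arch-like cells in YM. The paralog twist1b reversed that rank, with 91.2 (75.9 to 109) CPM in gata3-positive-like cells of DMSO and 74.2 (61.3 to 88.9) CPM in YM, its highest class in both. Its lowest were posterior arch-like cells, with 32.6 (26.9 to 39.2) CPM in DMSO and 29.3 (24.8 to 34.5) CPM in YM, and dorsal arch 2-like cells, with 41.0 (33.6 to 49.5) CPM in DMSO and 36.6 (31.5 to 42.2) CPM in YM. The remaining 3 classes lay between 67.1 and 72.0 CPM in DMSO and between 53.5 and 60.1 CPM in YM, with overlapping intervals. The twist1a share of twist1 UMIs accordingly ran from 77.7% (74.0 to 81.1) in gata3-positive-like cells to 92.0% (90.4 to 93.4) in dorsal arch 2-like cells of DMSO.

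The 3 snai genes, repressors of the same zinc finger family, differed in their distribution over the crest. From the highest class to the lowest, snai1a levels in CPM in DMSO were posterior arch-like (167), gata3-positive-like (138), dorsal arch 2-like (87.7), dorsal arch 1-like (73.7), frontonasal-like (73.1), then ventral arch-like cells (61.9). In YM they were posterior arch-like (153), gata3-positive-like (109), ventral arch-like (89.6), dorsal arch 2-like (81.9), dorsal arch 1-like (78.0), then frontonasal-like cells (70.9). Posterior arch-like cells were highest in both libraries, and their interval lay above that of gata3-positive-like cells in YM but not in DMSO. The 4 classes lowest in snai1a overlapped with their neighbours in the order in both libraries. The other copy, snai1b, had its lowest level in those same posterior cells, 14.6 (10.8 to 19.2) CPM in DMSO and 13.4 (10.3 to 17.0) CPM in YM. The other 5 classes held between 38.7 and 47.4 CPM of snai1b in DMSO and between 37.7 and 57.7 CPM in YM, with overlapping neighbours throughout.

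Of the family snai2 had the steepest distribution. The snai2 levels of DMSO, in CPM and in falling order, were gata3-positive-like (114), ventral arch-like (61.9), dorsal arch 2-like (56.6), dorsal arch 1-like (50.4), frontonasal-like (33.3), then posterior arch-like cells (12.2). Those of YM were gata3-positive-like (103), ventral arch-like (63.0), dorsal arch 2-like (54.2), dorsal arch 1-like (54.0), frontonasal-like (31.0), then posterior arch-like cells (11.7). The order of the 6 classes was identical in the libraries, only the ventral arch-like and both dorsal arch classes overlapping with their neighbours. The gata3-positive-like cells exceeded posterior arch-like cells 9.31-fold (95% interval 6.58 to 13.4) in DMSO and 8.80-fold (95% interval 6.49 to 12.1) in YM. The posterior arch-like class thus combined the highest snai1a with the lowest snai1b and snai2: snai1a held 86.2% (83.3 to 88.7) of its snai UMIs in DMSO and 85.9% (83.5 to 88.2) in YM, against 37.6% (34.3 to 41.0) and 42.6% (39.6 to 45.7) in ventral arch-like cells. At equal depth a snai2 UMI occurred in 4.21% (2.51 to 6.57) of posterior arch-like DMSO cells and 30.6% (24.6 to 37.1) of gata3-positive-like ones, with 12 and 53 shallower cells left out. Before thinning, at medians of 7597 and 4675 UMIs, the shares were 6.82% and 38.9%. Blood-like DMSO cells had a snai2 UMI in 0 of 70 thinned cells, which allows a share of up to 4.29% by the floor of 3 counts, so the posterior share was not distinguishable from that background.

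For tfap2a the ventral arches were the low point. The tfap2a levels of DMSO, in CPM and in falling order, were frontonasal-like (142), posterior arch-like (114), dorsal arch 1-like (64.5), dorsal arch 2-like (61.1), gata3-positive-like (29.2), then ventral arch-like cells (16.0). The YM levels were frontonasal-like (154), posterior arch-like (128), dorsal arch 1-like (84.8), dorsal arch 2-like (60.6), gata3-positive-like (31.7), then ventral arch-like cells (27.1). The order was again identical in the libraries, the only overlapping neighbours being both dorsal arch classes in DMSO and the lowest 2 classes in YM. Frontonasal-like cells exceeded ventral arch-like cells 8.88-fold (95% interval 7.02 to 11.4) in DMSO and 5.70-fold (95% interval 4.75 to 6.87) in YM. Within the first and second arches, the log2 ratio of ventral arch-like to dorsal arch 1-like cells was -2.01 (95% interval -2.39 to -1.66) in DMSO and -1.65 (95% interval -1.93 to -1.38) in YM. Of the 8 genes, 7 spanned at least 2-fold over the 6 classes in each library, where 40.6% of 9108 genes above 0 in all classes did so in DMSO and 41.2% of 9730 in YM. A span of at least 4-fold was reached by snai2 and tfap2a in DMSO and by these and snai1b in YM, against 11.7% and 12.3% of genes. The classes were drawn from expression in the same cells, so these spans are descriptions.

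The level of hand2, the ventral arch transcription factor downstream of endothelin signaling, gave a division of arch 1 and 2-like cells that does not rest on clusters within the arches. At 3500 UMIs per cell, 541 DMSO cells had a hand2 UMI and 1305 had none, and in YM 457 had one and 1804 had none. The largest contrast was that of tfap2a, the gene of early crest specification, at 9.51 CPM with and 58.2 CPM without hand2 in DMSO, and 18.8 and 76.8 CPM in YM. Its log2 ratio of cells with to cells without hand2 was -2.62 (95% interval -3.39 to -1.93) in DMSO and -2.03 (95% interval -2.62 to -1.50) in YM. In the opposite direction, twist1b was higher in cells with hand2, with log2 ratios of 0.75 (95% interval 0.46 to 1.04) and 0.62 (95% interval 0.30 to 0.94), and prrx1b likewise, with 0.39 (95% interval 0.23 to 0.54) and 0.88 (95% interval 0.74 to 1.03). The copy twist1a was lower in cells with hand2, at -0.35 (95% interval -0.47 to -0.22) and -0.19 (95% interval -0.31 to -0.07). These values pool the arch classes, and within a class some differed. Within ventral arch-like cells prrx1b had 1.38 (1.05 to 1.71) in DMSO and 1.14 (0.85 to 1.43) in YM. Within dorsal arch 1-like cells it had -0.43 (-0.89 to -0.01) in DMSO, the opposite direction, and 0.53 (0.13 to 0.90) in YM, from 77 and 54 cells with hand2. Within ventral arch-like cells tfap2a had -1.21 (-2.23 to -0.22) and -1.55 (-2.33 to -0.79), and within dorsal arch 1-like cells -4.07 (-9.39 to -1.57), from 1 UMI in cells with hand2, and -2.10 (-3.99 to -0.73), from 4. For twist1a the ventral arch-like values were -0.07 (-0.27 to 0.12) in DMSO and -0.23 (-0.42 to -0.04) in YM. Its dorsal arch 1-like values were -0.67 (-1.01 to -0.34) and -0.23 (-0.57 to 0.10). Within ventral arch-like cells prrx1a had 0.54 (0.06 to 1.05) in DMSO, opposite in sign to its pooled ratio, and -0.03 (-0.42 to 0.36) in YM. In the pooled thinned cells prrx1a, snai1a and snai2 had intervals that included 0 in both libraries, and snai1b in DMSO but not in YM, where the log2 ratio was 0.77 (95% interval 0.43 to 1.1). Within classes snai1b went the other way round. Its ventral arch-like values were 0.91 (0.16 to 1.73) in DMSO and 0.40 (-0.16 to 0.99) in YM. Its dorsal arch 1-like values were 0.96 (0.20 to 1.65) and 0.79 (-0.16 to 1.61). With unthinned cells, which hold more UMIs, intervals excluded 0 for prrx1a, at -0.33 (-0.51 to -0.15) and -0.17 (-0.32 to -0.02), for snai2, at 0.28 (0.05 to 0.50) and 0.31 (0.11 to 0.51), for snai1b also in DMSO, at 0.35 (0.08 to 0.61), and in DMSO only for snai1a, at -0.26 (-0.47 to -0.06). A cell without a hand2 UMI at this depth may still hold hand2 RNA, and these contrasts compare cells of 1 library with each other.

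**Figure D4:**
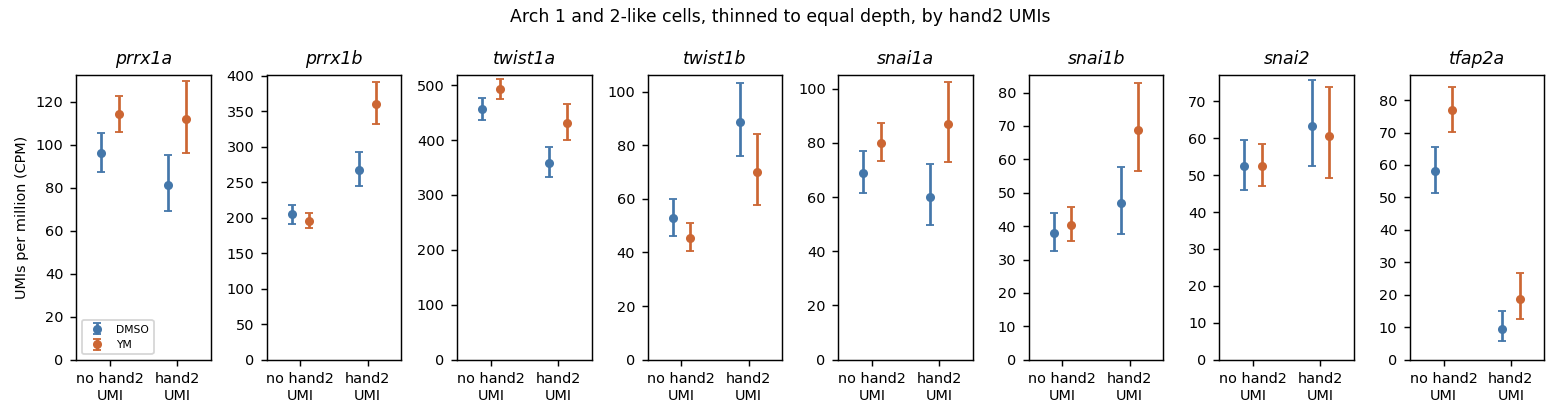
UMIs per 1000000 UMIs (CPM, y axis, from 0) of each gene in arch 1 and 2-like cells thinned to 3500 UMIs, without and with a hand2 UMI (x axis), with 95% Poisson intervals, blue for DMSO and orange for YM. In both libraries tfap2a is lower, and prrx1b and twist1b are higher, in cells with hand2; among cells with hand2, prrx1b is at 268 CPM in DMSO and 361 CPM in YM.

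Between the libraries, the members differed most in ventral arch-like cells (724 DMSO and 618 YM cells), the class whose identity depends on endothelin signaling in zebrafish. There 6 of the 8 genes were higher in YM with an interval above 0, twist1b was lower with an interval below 0, and the interval of snai2 included 0. By the same rule 7.67% of the 7330 genes with at least 50 UMIs in the class lay above 0 and 8.17% below, a share that depends on the UMIs of each gene. The member median log2 ratio was 0.47, against -0.02 over these genes. By the fold of 1.5 used for counting, 1 member (tfap2a) was higher and 0 were lower, where 2.74% and 3.1% of those genes were. The 6 ratios above 0 ranged from 0.26 to 0.76 on the log2 scale. These counts compare 2 libraries, not replicated conditions.

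Both prrx1 genes were higher in ventral arch-like cells of the YM library. For prrx1a the ventral arch-like level was 72.5 (65.3 to 80.3) CPM in DMSO and 108 (99.4 to 118) CPM in YM, a log2 ratio of 0.58 (95% interval 0.39 to 0.77), above that of 97.1% of genes. For prrx1b it was 218 (205 to 231) CPM in DMSO and 296 (281 to 311) CPM in YM, a log2 ratio of 0.44 (95% interval 0.33 to 0.55), above 94.6% of genes. The study placed both on a ventral gene list made with these libraries, and their direction is therefore no independent evidence. The DMSO levels of prrx1b were below those of dorsal arch 1-like cells, with a ventral to dorsal log2 ratio of -0.12 (95% interval -0.24 to 0.00), while in YM the ventral class was above, at 0.34 (95% interval 0.23 to 0.44). Both clusters joined in the class gave the same direction: prrx1b had log2 ratios of 0.39 (0.25 to 0.53) in the cluster led by hand2 and dlx6a and 0.52 (0.34 to 0.71) in that led by hmx4, and prrx1a of 0.59 (0.35 to 0.83) and 0.56 (0.22 to 0.90). Where clusters were drawn without regression of the cell cycle the values were smaller, 0.34 for prrx1a and 0.15 for prrx1b, and over all arch 1 and 2-like cells as 1 class they were 0.30 and 0.073.

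The copies of twist1 had ratios of opposite sign. Ventral arch-like twist1a was at 384 (367 to 401) CPM in DMSO and 459 (441 to 478) CPM in YM, a log2 ratio of 0.26 (95% interval 0.17 to 0.35), and twist1b at 69.9 (62.9 to 77.6) CPM in DMSO and 53.5 (47.4 to 60.3) CPM in YM, a log2 ratio of -0.39 (95% interval -0.62 to -0.15), below that of all but 8.89% of genes. The twist1a share of twist1 UMIs was 84.6% (83.1 to 86.0) in DMSO and 89.6% (88.3 to 90.7) in YM, intervals that did not overlap. The same held in dorsal arch 1-like cells, with 86.3% (84.9 to 87.6) and 89.7% (88.7 to 90.7), and not in the other 4 classes. The level of twist1b was lower in YM in each of the 6 classes, by log2 ratios of -0.39 (ventral arch-like), -0.30 (dorsal arch 1-like), -0.30 (gata3-positive-like), -0.16 (dorsal arch 2-like), -0.16 (frontonasal-like) and -0.15 (posterior arch-like), with an interval below 0 in the ventral arch-like and dorsal arch 1-like classes. The clusters of these classes differed. In dorsal arch 1-like cells twist1b had -0.06 (-0.35 to 0.24) in the cluster led by igfbp5b. It had -0.53 (-0.85 to -0.21) in the cluster with histone genes among its leading genes. In ventral arch-like cells it had -0.27 (-0.56 to 0.01) in the dlx6a cluster and -0.62 (-1.05 to -0.20) in the hmx4 cluster. Over all crest-like cells the log2 ratio of twist1b was -0.30 (95% interval -0.41 to -0.19), and -0.05 was the median over all genes tested. With free RNA subtracted (2.36% of UMIs in DMSO and 0.364% in YM) twist1b was at -0.30 over the crest-like cells and at -0.39 in the ventral arch-like class. A subtraction this small could hardly move the ratio.

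Of the snai genes the snai1 copies were higher in ventral arch-like cells of YM and snai2 was not. The level of snai1a was 61.9 (55.2 to 69.1) CPM in DMSO and 89.6 (81.6 to 98.2) CPM in YM, a log2 ratio of 0.53 (95% interval 0.32 to 0.75), above 96.7% of genes. That of snai1b was 40.8 (35.4 to 46.7) CPM in DMSO and 57.7 (51.3 to 64.6) CPM in YM, a log2 ratio of 0.50 (95% interval 0.24 to 0.76), above 95.9% of genes, although it was 0.21 without regression of the cell cycle and 0.82 after thinning. Over all arch 1 and 2-like cells as 1 class the log2 ratios were 0.20 for snai1a and 0.18 for snai1b. In the clusters led by hand2 and dlx6a and by hmx4, snai1a had 0.52 (0.26 to 0.78) and 0.56 (0.20 to 0.93). There snai1b had 0.60 (0.27 to 0.93) and 0.31 (-0.13 to 0.76). With 61.9 (55.2 to 69.1) CPM in DMSO and 63.0 (56.3 to 70.2) CPM in YM, snai2 had a log2 ratio of 0.03 (95% interval -0.20 to 0.25). By cluster, snai2 had 0.22 (-0.06 to 0.50) in the dlx6a cluster and -0.38 (-0.79 to 0.04) in the hmx4 cluster. Its share of snai UMIs was 37.6% (34.3 to 41.0) in DMSO and 29.9% (27.2 to 32.8) in YM, the only class of the 6 in which the intervals of that share did not overlap.

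The class in which tfap2a was lowest also had its largest ratio. Ventral arch-like tfap2a was at 16.0 (12.7 to 19.8) CPM in DMSO and 27.1 (22.7 to 32.0) CPM in YM, from 81 and 138 UMIs, a log2 ratio of 0.76 (95% interval 0.36 to 1.18) and a fold of 1.70, above 98.7% of genes. In dorsal arch 1-like cells it was at 64.5 (57.5 to 72.1) CPM in DMSO and 84.8 (78.0 to 92.1) CPM in YM, a log2 ratio of 0.40 (95% interval 0.19 to 0.60). Over all crest-like cells the log2 ratio was 0.29 (95% interval 0.20 to 0.39). The YM level in ventral arch-like cells nonetheless stayed below that of the frontonasal-like, posterior arch-like and both dorsal arch classes in either library. Epidermal markers, whose cells express tfap2a, summed to 231.1 CPM in the ventral arch-like class in DMSO and 190.1 CPM in YM over 10 genes, of which 3 and 4 were at 0. Summed macrophage and pigment markers were each at or below 1.97 CPM there. In DMSO and YM, neutrophil markers summed to 17.3 and 8.43 CPM, erythroid markers to 10.2 and 10.4 CPM, and muscle markers to 7.68 and 10.8 CPM. Endothelial markers summed to 5.12 and 4.90 CPM, and neural or glial markers to 2.17 and 1.18 CPM. The part of RNA from other cell types in the tfap2a ratio was not tested.

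**Figure D5:**
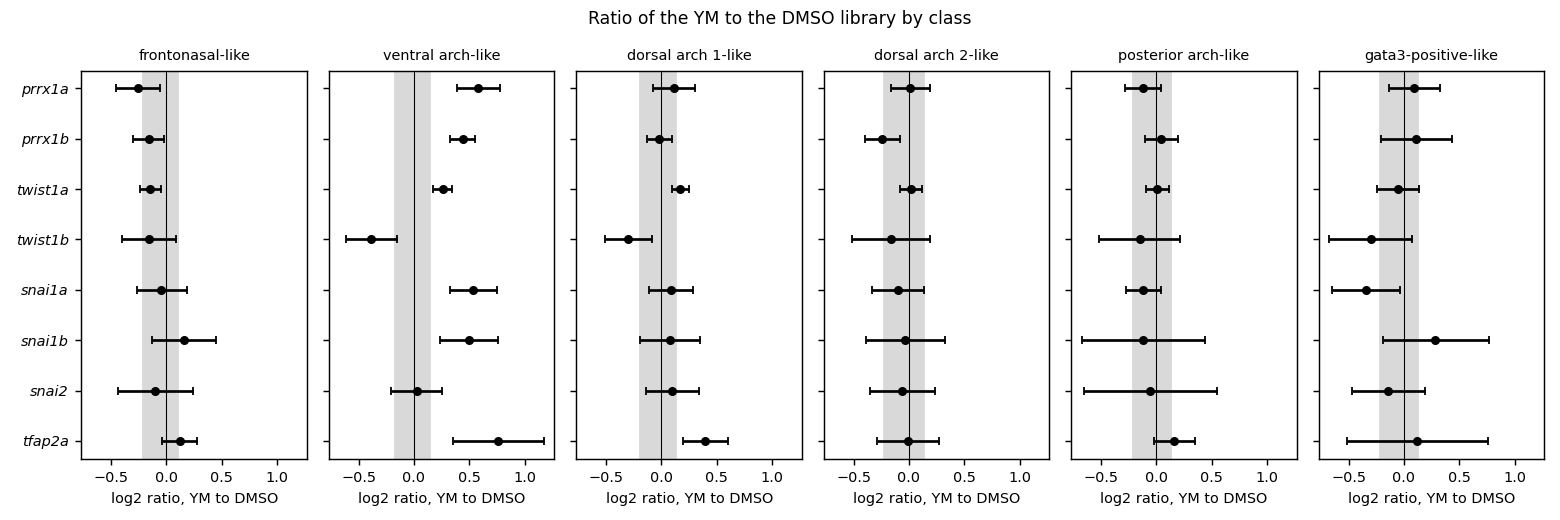
Log2 ratio of the YM to the DMSO library (x axis) of each gene (y axis) in each crest-like class (panels). Points are ratios of class sums with 95% intervals of counting error, and the grey band holds the middle 50% of all genes with at least 50 UMIs in that class; 6 of the 8 genes lie above 0 with their interval in ventral arch-like cells, and twist1b lies below 0 in all 6 classes.

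The same difference appeared in the share of ventral arch-like cells with a UMI at equal depth. After thinning (25 DMSO and 12 YM cells left out), a UMI of prrx1a or prrx1b was present in 50.8% (47.0 to 54.6) of DMSO and 68.8% (65.0 to 72.5) of YM cells, where blood-like cells had 1.43% (0.0362 to 7.70) and 4.69% (0.977 to 13.1). Before thinning the ventral shares were 64.2% and 86.4%, at medians of 6769 and 7742.5 UMIs, and blood-like cells were deeper (8566 and 9626). A UMI of any snai gene was present in 38.5% (34.9 to 42.2) and 48.0% (44.0 to 52.1) after thinning, and 56.8% and 70.4% before. Cells holding both a prrx1 and a twist1 UMI made up 36.2% (32.6 to 39.9) and 53.8% (49.7 to 57.8) after thinning. This joint share rises with the share of either family alone. It was not compared with the product of the separate shares, so it is no measure of joint expression. The mean number of the 8 genes detected per ventral arch-like cell was 1.99 in DMSO and 2.51 in YM, the lowest and the highest of the 6 classes. Blood-like cells had 0.07 and 0.125. At least 4 of the 8 were detected in 10.4% of DMSO and 21.5% of YM ventral arch-like cells.

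A hand2 UMI in place of the cluster border gave ventral values of like size, in largely the same cells. Of the cells with a hand2 UMI, 456 of 541 in DMSO and 395 of 457 in YM were ventral arch-like. The ratios of the class and of these cells are therefore not independent. The study reported a modest lowering of ventral patterning genes such as hand2 by YM, so a hand2 UMI may select different cells in each library. Among arch 1 and 2-like cells with a hand2 UMI, taken from any arch class, the YM to DMSO log2 ratios were 0.98 (0.09 to 1.91) for tfap2a, 0.55 (0.13 to 0.97) for snai1b, 0.53 (0.16 to 0.90) for snai1a, 0.46 (0.14 to 0.78) for prrx1a, 0.43 (0.26 to 0.61) for prrx1b and 0.27 (0.11 to 0.42) for twist1a. The other 2 had intervals reaching 0, at -0.34 (-0.70 to 0.01) for twist1b and -0.06 (-0.46 to 0.33) for snai2. Among cells without a hand2 UMI the interval of prrx1b included 0, at -0.06 (-0.19 to 0.06), and 4 members were higher in YM with an interval above 0: tfap2a at 0.40 (0.18 to 0.62), prrx1a at 0.25 (0.08 to 0.42), snai1a at 0.21 (0.01 to 0.42) and twist1a at 0.11 (0.03 to 0.19). Within the ventral arch-like class the share of thinned cells with hand2 was alike, 456 of 699 cells in DMSO and 395 of 606 in YM. Summed markers that named the class were at 2899.7 CPM in DMSO and 1853 CPM in YM, all 12 above 0 in both, and the part of that difference in the members' ratios was not tested.

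In the other 5 classes 0 members passed 1.5-fold in either direction. Of all genes tested, 2.19% were higher and 3.05% lower by that size in frontonasal-like cells, 2.41% and 3.39% in dorsal arch 1-like cells, 2.82% and 3.59% in dorsal arch 2-like cells, 2.48% and 3.17% in posterior arch-like cells, and 2.42% and 4.02% in gata3-positive-like cells. The largest member ratios outside the ventral class were that of tfap2a in dorsal arch 1-like cells, above, and that of snai1a in gata3-positive-like cells, at 138 (119 to 159) CPM in DMSO and 109 (93.4 to 127) CPM in YM, a log2 ratio of -0.34 (95% interval -0.65 to -0.03). Frontonasal-like cells went the other way from the ventral class for 3 genes: prrx1a was at 99.5 (89.7 to 110.1) CPM in DMSO and 83.1 (75.7 to 91.0) CPM in YM, a log2 ratio of -0.26 (95% interval -0.46 to -0.06). The log2 ratio there was -0.16 (95% interval -0.30 to -0.02) for prrx1b and -0.15 (95% interval -0.24 to -0.05) for twist1a, against a median of -0.06 over all genes of the class. In dorsal arch 2-like cells prrx1b had a log2 ratio of -0.24 (95% interval -0.40 to -0.08), which was 0.13 at a clustering resolution of 0.5 and 0.026 without regression of the cell cycle, so its direction there was not stable. In all, 4 of the 8 members had intervals above 0 in 1 or more classes and below 0 in others. The same held for 2.63% of the 4190 genes tested in all 6 classes, a share that depends on the UMIs of each gene. The members were not compared with genes of like UMIs, so these values give no measure of enrichment. The count of 4 used CPM without TMM scaling factors. Those factors were 1.02 in DMSO and 0.979 in YM for frontonasal-like cells, and 1.02 and 0.983 for gata3-positive-like cells. They would raise the ratios there, where the intervals of prrx1b, twist1a and snai1a ended close to 0. The count was not repeated with these factors. In posterior arch-like cells all 8 intervals included 0, the widest being that of snai2, at -0.06 (95% interval -0.66 to 0.55) from 42 and 58 UMIs, too wide to detect a difference of that size at this depth. Over all crest-like cells 0 members passed 1.5-fold, where 1.76% of 11096 genes were higher and 2.42% lower.

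Genes that act with or beside these regulators were taken from a list of 40, of which 38 are in the files and 25 had at least 50 UMIs in ventral arch-like cells. By 1.5-fold, 1 was higher in YM and 3 were lower, against 2.74% and 3.1% of all genes, and the median log2 ratio of the list was 0.04. The 3 lower genes were sox10, which specifies crest and whose regulatory sequence drives the mRFP reporter used in the sort, at 10.6 CPM in DMSO and 4.31 CPM in YM (log2 ratio -1.30, 95% interval -2.09 to -0.56), the cartilage regulator sox9a, at 28.2 CPM in DMSO and 17.1 CPM in YM (log2 ratio -0.72, 95% interval -1.13 to -0.33), and twist2, a relative of twist1, at 17.3 CPM in DMSO and 8.43 CPM in YM (log2 ratio -1.04, 95% interval -1.60 to -0.50). The higher one was pdgfrb, a receptor for platelet-derived growth factor, at 6.50 CPM in DMSO and 10.6 CPM in YM (log2 ratio 0.70, 95% interval 0.05 to 1.37).

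Further relatives and partners included twist3, at 58.3 CPM in DMSO and 82.2 CPM in YM (log2 ratio 0.49, 95% interval 0.28 to 0.71), and tcf12, an E protein that pairs with Twist1, at 184 CPM in DMSO and 136 CPM in YM (log2 ratio -0.44, 95% interval -0.58 to -0.30). The 2 other E protein genes tested, tcf3a and tcf3b, had log2 ratios of 0.09 and -0.05. Of the Id genes, whose products sequester E proteins, id2a was at 71.7 CPM in DMSO and 89.8 CPM in YM (log2 ratio 0.32, 95% interval 0.12 to 0.53) and id1 had a log2 ratio of -0.01. Among genes of the crest program, sox9b and msx1a had log2 ratios of -0.42 and -0.55, and msx3 and msx1b had 0.34 and 0.33. The AP-2 gene tfap2c had 0.01, and kctd15a, whose product inhibits AP-2, had 0.07. In the 5 other classes 0 to 2 of 19 to 26 genes tested were higher by 1.5-fold and 0 to 2 lower, among them sox9b and msx1a in dorsal arch 1-like cells, with log2 ratios of -1.01 and -0.81, and tcf3a in gata3-positive-like cells, with 0.85. The epithelial gene cdh1, the E-cadherin gene that Snai proteins repress, had 5 UMIs in DMSO and 4 in YM in ventral arch-like cells, and the mesenchymal cadherins cdh2 and cdh11 had log2 ratios of 0.04 and 0.13.

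The genes with the distribution most like that of each member were found over the 12 class sums, as the Pearson correlation r of log2(CPM + 1) among 3736 genes with a mean of at least 20 CPM. For prrx1a they were itga5 (r = 0.83), hist1h2a6 (r = 0.83) and smarce1 (r = 0.79), and for prrx1b kdm2ba (r = 0.88), dnttip2 (r = 0.86) and mych (r = 0.86). For twist1a they were igfbp5b (r = 0.86), sema4c (r = 0.85) and nr2f1b (r = 0.85), and for twist1b vasna (r = 0.95), pcdh18a (r = 0.93) and adh5 (r = 0.93). For snai1a they were her8a (r = 0.92), etv5a (r = 0.89) and tenm3 (r = 0.89), and for snai1b bzw1b (r = 0.95), ldb2b (r = 0.94) and erfl3 (r = 0.94). The closest match of all was to snai2, ebf3a (r = 0.98), followed by sinhcafl (r = 0.95) and hapln1a (r = 0.93), the latter a hyaluronan link protein gene of cartilage matrix. For tfap2a they were zfp36l2 (r = 0.94), pdgfra (r = 0.91), which encodes a platelet-derived growth factor receptor of crest mesenchyme, and agrn (r = 0.89). Among the members themselves the highest correlation was 0.87, between snai1b and snai2, and the pair snai2 and tfap2a was at -0.74. The 12 sums come from only 2 libraries.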

How the data were processed

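Cells from 2 libraries, 1 per treatment, were analysed from the raw matrices of UMI counts that the authors deposited (features by barcodes, unfiltered). The submitters' processing notes name Cell Ranger 5.0.1, Seurat 4.3.0 and build GRCz11, and the file header names Cell Ranger 4. How reads shared by paralogs were counted is not given in the sources used here.

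Barcodes were called as cells by the order-of-magnitude rule plus a test of smaller barcodes against near-empty ones (3721 DMSO, 4517 YM). Cells with 200 to 3000 (DMSO) or 3500 (YM) genes and under 5% mitochondrial UMIs were kept (3613 and 4429, holding 22167716 and 30430258 UMIs). Scrublet in scanpy 1.11.5 marked 1 and 2 cells and was taken not to have worked, so doublets were not removed. Cells were clustered in Seurat 5.3.0 (R 4.3.3) on 1954 variable genes and 30 components at resolution 0.8, with cell cycle regression and with 97 genes left out, the 8 members among them, giving 17 clusters named from marker lists. Differences of named classes from those of the study may come from these rebuilt names.

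UMIs were summed per class and library and given as CPM with exact Poisson intervals. Ratios of libraries or classes have exact conditional binomial intervals, shares have Clopper-Pearson intervals, and all intervals are at 95%. A count of 0 is given a floor of 3 counts, which is lower than the exact upper limit. Only genes with at least 50 UMIs over both libraries entered the gene-wide comparison. With 1 library per condition no test was made, and a fold of 1.5 was used for counting. For shares of cells, each cell was thinned to 3500 UMIs, leaving out 395 DMSO and 372 YM cells. The ratio intervals were tested on class sums simulated with Poisson counting error only. The thinning was checked on real cells, and only for equal totals per cell. Python 3.11.15, numpy 2.4.6, scipy 1.17.1, matplotlib 3.10.9 and edgeR 4.0.16 (scaling factors only) were used.

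The members, the marker lists and the list of 40 related genes were chosen with earlier results of these data known. The genes named are the 8 members, the listed related genes past 1.5-fold or with a stated role, and the 3 genes most like each member over the class sums. Values per cluster, members detected per cell, contrasts between clusters and ratios within cells with or without hand2 were added after the data were seen. The alternatives tried were other cell calls and filters, doublet removal, clustering choices, scalings, thinning, subtraction of free RNA and coarser classes.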

Additional observations from a re-analysis of the deposited data

Results flagged for a closer look

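For 4 members the YM to DMSO log2 ratio had an interval above 0 in 1 or more classes and below 0 in others. The same held for 2.63% of the 4190 genes tested in all 6 classes, a share that depends on the UMIs of each gene. No comparison with genes of like UMIs was made, so these values give no measure of enrichment. The difference between classes was not tested, since each class had 1 library per treatment, and the intervals cover counting error only. The count of 4 was made without TMM factors, which would raise the frontonasal-like and gata3-positive-like ratios, and was not repeated with them. Frontonasal-like intervals ended at -0.02 for prrx1b and -0.05 for twist1a, and the gata3-positive-like interval of snai1a at -0.03. In the zic2a cluster of frontonasal-like cells prrx1b had 0.647 (-0.317 to 1.697), opposite in sign to its class. The ratio of prrx1a was 0.58 in ventral arch-like cells and -0.26 in frontonasal-like cells. That of prrx1b was 0.44 in ventral arch-like cells, -0.16 in frontonasal-like cells and -0.24 in dorsal arch 2-like cells. For twist1a it was 0.26 in ventral arch-like and 0.17 in dorsal arch 1-like cells, and -0.15 in frontonasal-like cells. For snai1a it was 0.53 in ventral arch-like cells and -0.34 in gata3-positive-like cells.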

How the results depend on the processing

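Of 800 alternative values of a member's log2 ratio of YM to DMSO, 754 lay within the counting interval of the reported value, 38 moved outside it and 8 reversed. In ventral arch-like cells prrx1a was 0.34 without cell cycle regression, 0.30 with arch 1 and 2-like cells as 1 class and 0.10 over all kept cells. For prrx1b there the values were 0.57 with only the members left out of clustering, 0.15 without cell cycle regression, 0.073 with arch 1 and 2-like cells as 1 class and 0.047 over all kept cells. With arch 1 and 2-like cells as 1 class snai1a was 0.20 and snai1b 0.18, and over all kept cells they were 0.042 and 0.17. Over all crest-like cells twist1a was 0.13 with TMM factors. Reversed values over all kept cells were prrx1a 0.10, prrx1b 0.047 and twist1a 0.10 against frontonasal-like cells, and snai1a 0.042 against gata3-positive-like cells. In dorsal arch 2-like cells prrx1b reversed to 0.13 at resolution 0.5, to 0.026 without cell cycle regression, to 0.073 with arch 1 and 2-like cells as 1 class and to 0.047 over all kept cells. The coarser classes pool other cells by construction. At resolution 0.5 the dorsal arch 2-like clusters had hand2 and gsc among their leading genes, so that class also held other cells. For the other settings the cause was not tested. A hand2 UMI in place of the ventral class, an alternative chosen after seeing the data, moved 0 of the 8 ventral ratios. Most cells with a hand2 UMI were ventral arch-like, so this alternative is not independent of the class. Resolution 0.5 gave no ventral arch-like class and so no value for it. Of 1200 CPM levels 74 moved, 27 of them without cell cycle regression. Of 192 shares of cells 164 moved, as the thinning depth sets them. Of 150 alternative values of the prrx1a share of prrx1 UMIs 9 moved, 5 of them without cell cycle regression. For the twist1a share of twist1 UMIs 14 of 150 moved. No paired analysis was possible because each condition had 1 library. Depth limited tfap2a in ventral arch-like cells (81 and 138 UMIs) and snai2 in posterior arch-like cells (42 and 58 UMIs).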
